A study of Homo sapiens with 20 samples.

Results

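The mitotic and spindle genes are 45 genes whose products bring cells into mitosis, build the spindle, hold the checkpoint that waits for chromosome attachment, and divide the cell. They were chosen by function, with earlier results of these data known, and matched by symbol to the annotation of the array. All 45 had at least 1 probe set annotated to their symbol alone, among 19775 genes with such a probe set, and all 45 had a mean signal above the filter on dim genes (log2 intensity 4.70). Each gene was represented by its brightest probe set. The 45 genes hold 90 probe sets, and 25 of the genes have more than 1. Of the 90 probe sets 80 lay above the filter, and later counts of other probe sets use only those.

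Messenger RNA was measured with Affymetrix 3' arrays in the human osteosarcoma line U2OS, an established cell line. The conditions were hypoxia (oxygen below 0.1%), tunicamycin at 2.5 ug/ml, emetine at 100 ug/ml, depletion of UPF1 with the hairpin named shRent1 in the labels, and control cells. The stresses lasted 3 hr, after which DRB at 100 ug/ml was given to cells of all 5 conditions and RNA was taken every 1.5 hr, from 0 to 4.5 hr. Each condition and time has 1 array, 20 in all, and nothing says that the arrays came from separate cultures. Tunicamycin blocks N-linked glycosylation, emetine stops translation elongation, UPF1 (Rent1) is the central helicase of nonsense-mediated mRNA decay, and DRB stops elongation by RNA polymerase II. The labels name no control hairpin and do not say whether a stress went on during DRB. The depletion could be seen on the arrays: the brighter UPF1 probe set averaged 29.1% of control in the depleted cells. It was lower on 4 of 4 arrays. The other UPF1 probe set averaged 60.95% of control, also lower on 4 of 4. At 0 hr the brighter one read 169.5 in depleted and 354.5 in control cells, as linear intensity. At the later times it read 92.4, 94.7 and 89.4 against 352.4, 392.2 and 377.0, so its signal in depleted cells was highest at 0 hr. Array medians ran from 37.3 to 40.4 on the linear intensity scale. Markers of mesenchymal cells lay above the filter for 8 of 10 genes, with VIM (13.94), COL1A1 (12.63), COL6A3, SPARC and FN1 as the brightest in mean log2 intensity and COL1A2 (4.41) and TWIST1 (3.31) below it. Above it too lay 5 of 8 epithelial (KRT18, KRT8, EPCAM, CLDN4 and KRT5), 5 of 5 neural (TUBB3 at 12.74 and NEFL at 10.57 the brightest), 3 of 4 endothelial (PECAM1 at 6.25, VWF and TEK, but not CDH5) and 2 of 5 blood cell markers (HBB at 6.59 and CD3E at 4.90, but not PTPRC, SPI1 or CD14).

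Entry into mitosis is driven by CDK1 bound to cyclin B (CCNB1, CCNB2), after cyclin A (CCNA2). WEE1 holds CDK1 inactive by phosphorylation, and the CDC25 phosphatases remove that brake. The checkpoint kinases and adaptors (TTK, BUB1, BUB1B, BUB3, MAD2L1) keep CDC20 from activating the anaphase-promoting complex until kinetochores are attached, and kinesins and Aurora kinases shape the spindle. Most of these transcripts accumulate in the G2 and M phases. Their promoters are known for the CHR element (cell cycle genes homology region), which is bound by the MuvB core of the DREAM complex, and for CCAAT boxes, which are bound by NF-Y.

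RefSeq promoters on build GRCh38.p14, from 250 bases before to 50 after the start, were matched for 37 of the 45 genes, in 48 promoters. BUB3, UBE2C, TTK, WEE1, FOXM1, TPX2, AURKA and BIRC5 had no entry. The CHR letters TTTGAA stood on either strand in 25 of the 37 genes (67.6%), against 18.2% of all 27305 genes with a promoter. The letters CCAAT stood on either strand in 29 of 37 (78.4%), against 39.7% of all genes. Both were present in 20 of 37 genes (54.1%), against 8.37% of all genes. The search used TTTGAA or TTCAAA and CCAAT or ATTGG, which can share at most 1 base, and a match describes letters in this window and not a bound site. The 4 promoters below hold both motifs and are printed because their transcripts behaved differently after DRB. KIF18A, KIF23 and CCNB2 fell in control cells, and KIF4A did not pass the test. Capitals mark TTTGAA, and CCAAT or its reverse complement ATTGG.
KIF18A, chr11:28108107-28108406, minus strand: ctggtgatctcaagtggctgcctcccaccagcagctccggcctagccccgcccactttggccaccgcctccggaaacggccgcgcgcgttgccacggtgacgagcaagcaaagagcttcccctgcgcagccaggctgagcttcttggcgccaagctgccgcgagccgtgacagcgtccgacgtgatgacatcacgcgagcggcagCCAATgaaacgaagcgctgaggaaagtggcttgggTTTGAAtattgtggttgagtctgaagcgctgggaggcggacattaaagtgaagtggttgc
KIF23, chr15:69414099-69414398, plus strand: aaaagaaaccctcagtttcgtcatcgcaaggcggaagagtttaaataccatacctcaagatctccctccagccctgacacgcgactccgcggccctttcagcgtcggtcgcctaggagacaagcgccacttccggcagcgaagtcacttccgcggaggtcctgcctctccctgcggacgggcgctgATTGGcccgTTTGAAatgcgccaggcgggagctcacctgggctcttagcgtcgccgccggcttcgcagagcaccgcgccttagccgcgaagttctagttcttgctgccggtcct
CCNB2, chr15:59104896-59105195, plus strand: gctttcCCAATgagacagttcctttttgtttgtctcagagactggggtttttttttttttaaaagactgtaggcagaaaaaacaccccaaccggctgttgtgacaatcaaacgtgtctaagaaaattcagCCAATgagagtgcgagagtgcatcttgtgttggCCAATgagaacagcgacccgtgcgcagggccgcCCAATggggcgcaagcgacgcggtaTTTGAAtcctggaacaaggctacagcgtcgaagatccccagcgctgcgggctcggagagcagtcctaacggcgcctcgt
KIF4A, chrX:70289854-70290153, plus strand: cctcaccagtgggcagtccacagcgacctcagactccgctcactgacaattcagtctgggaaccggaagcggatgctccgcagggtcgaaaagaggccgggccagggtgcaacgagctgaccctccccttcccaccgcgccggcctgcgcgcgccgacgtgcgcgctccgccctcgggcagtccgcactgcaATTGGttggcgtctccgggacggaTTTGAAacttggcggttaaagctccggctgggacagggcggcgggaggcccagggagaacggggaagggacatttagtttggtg
Counted to its first base, TTTGAA lies 10 bases before the start of KIF18A, 55 before that of KIF23, 29 before that of CCNB2 and 34 before that of KIF4A. CCNB2, cyclin B2, has 4 CCAAT boxes in this window, and each of the others has 1. The CHR letters were present in 11 of the 21 matched genes that fell in control (52.4%) and in 14 of the 16 that did not pass (87.5%), as described next.

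The first question was how fast these transcripts were lost in control cells once transcription was blocked. Mitotic transcripts fell relative to the array's typical transcript: 25 of 45 fell and 0 rose, against 17.5% of all 14478 genes tested that fell and 14.2% that rose (limma, Benjamini-Hochberg adjusted over all genes, threshold 0.05). Their median slope was -0.10 log2 per hr, against 0.03 for all genes. Every slope here is a rate relative to the array, since normalization between arrays removes a loss shared by most transcripts, and no slope is a half-life. In such bulk samples, fewer cells in mitosis and less RNA per cell cannot be told apart. Without the control array at 0 hr 14 of 45 fell. The 25 genes hold 17 other probe sets above the filter, in 14 genes. Of these probe sets 14 had the same sign and 3 the opposite, in BUB1 and CCNB2. Of those with the same sign 6 passed, and of the opposite ones 0 did. Other probe sets of genes that did not pass are not in these counts.

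The spread within the group was wide. WEE1, the CDK1 inhibitor, had the lowest slope, -0.995 ± 0.08 log2 per hr (SE; adjusted p = 1.72e-06), with log2 intensities of 9.49, 7.88, 6.06 and 5.12 in control cells in time order, as in every set of 4 values below. That is 4.84% of its 0 hr signal at the last time. The last value, 34.9 as linear intensity, lay under the lowest array median (37.3) and near the filter. This leaves the steepness of the WEE1 fall uncertain. MAD2L1, the checkpoint protein that binds CDC20, had the highest slope, 0.06 ± 0.05 (adjusted p = 0.416), and read 10.72, 11.30, 10.75 and 11.18 in control cells. WEE1 fell at each step, while MAD2L1 moved up and down with no steady course.

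By role, 5 of the 8 cyclins and regulators of CDK1 fell: WEE1, CDC25C, CCNA2, CCNB2 and CCNB1. CCNA2 had a slope of -0.16 ± 0.03 (adjusted p = 0.00186) and CCNB1 of -0.11 ± 0.03 (adjusted p = 0.0157). CDK1 itself had -0.10 ± 0.04 (adjusted p = 0.0682) and did not pass, and FOXM1, a transcription factor of G2/M genes, had 0.05 ± 0.03 (adjusted p = 0.197). Among 3 partners of the anaphase-promoting complex, its activator CDC20 (-0.10 ± 0.03, adjusted p = 0.00867) and its ubiquitin-conjugating enzyme UBE2C (-0.18 ± 0.03, adjusted p = 0.000322) fell. PTTG1, the securin that the complex destroys, had -0.01 ± 0.03 and did not pass.

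Among 12 checkpoint and kinetochore genes 8 fell. The steepest were TTK, the kinase that starts checkpoint signalling (-0.45 ± 0.06), NDC80, which binds microtubule ends (-0.32 ± 0.05), and SGO2, a shugoshin of centromeric cohesion (-0.29 ± 0.03). CENPF, CENPE, NEK2, BUB1 and BUB1B fell too, with slopes from -0.25 to -0.09. BUB3, MAD2L1, NUF2 and the centromeric histone CENPA did not pass, although NUF2 and NDC80 are subunits of the same complex. NDC80 read 10.11, 10.03, 9.07 and 8.85 in control cells, and NUF2 read 9.62, 10.02, 9.30 and 9.71 in control cells. NDC80 was lower on both late arrays than on both early ones, and NUF2 was not.

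Among 8 mitotic kinesins 6 fell. KIF18A, which dampens chromosome oscillation at the metaphase plate, had -0.54 ± 0.05 (adjusted p = 2.29e-06). KIF23 of the central spindle had -0.36 ± 0.05, and KIF11, the motor that separates spindle poles, -0.31 ± 0.05. KIF18A read 6.76, 6.40, 5.12 and 4.47 in control cells and ended under the filter, which leaves the steepness of its fall uncertain. KIF2C, KIF15 and KIF20A fell at -0.14 ± 0.02, -0.13 ± 0.04 and -0.10 ± 0.03, and KIF4A and KIF14 did not pass. Of the Aurora and chromosomal passenger genes AURKA (-0.40 ± 0.05) and AURKB (-0.10 ± 0.03) fell, and INCENP, BIRC5 and TPX2 did not pass. Of 9 spindle, chromosome and cytokinesis genes, ASPM (-0.38 ± 0.03) and CKAP2 (-0.14 ± 0.04) fell, while TOP2A, the topoisomerase that untangles chromosomes, had -0.07 ± 0.04 (adjusted p = 0.168). NUSAP1, PRC1, DLGAP5, HMMR, ECT2 and ANLN did not pass either, nor did the phosphatase CDC25B among the CDK1 regulators.

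The loss was not even in time. In control cells the median change from 0 hr was -0.02 log2 at 1.5 hr, -0.35 at 3 hr and -0.42 at 4.5 hr, against 0.06, 0.11 and 0.11 for all genes. Between 1.5 and 3 hr 42 of 45 transcripts were lower on the later array, against 26 of 45 between 0 and 1.5 hr and 29 of 45 between 3 and 4.5 hr. Each of these steps is the difference of 1 pair of arrays. WEE1, ASPM, CENPF and SGO2 were among those that dropped already in the first interval, and SGO2 read 10.19, 9.73, 9.17 and 8.92 in control cells. Between 1.5 and 3 hr 41 of 45 were lower under hypoxia, 38 with tunicamycin, 35 in UPF1-depleted cells and 25 with emetine. The share of all genes that were lower over each step was not counted.

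**Figure D1:**
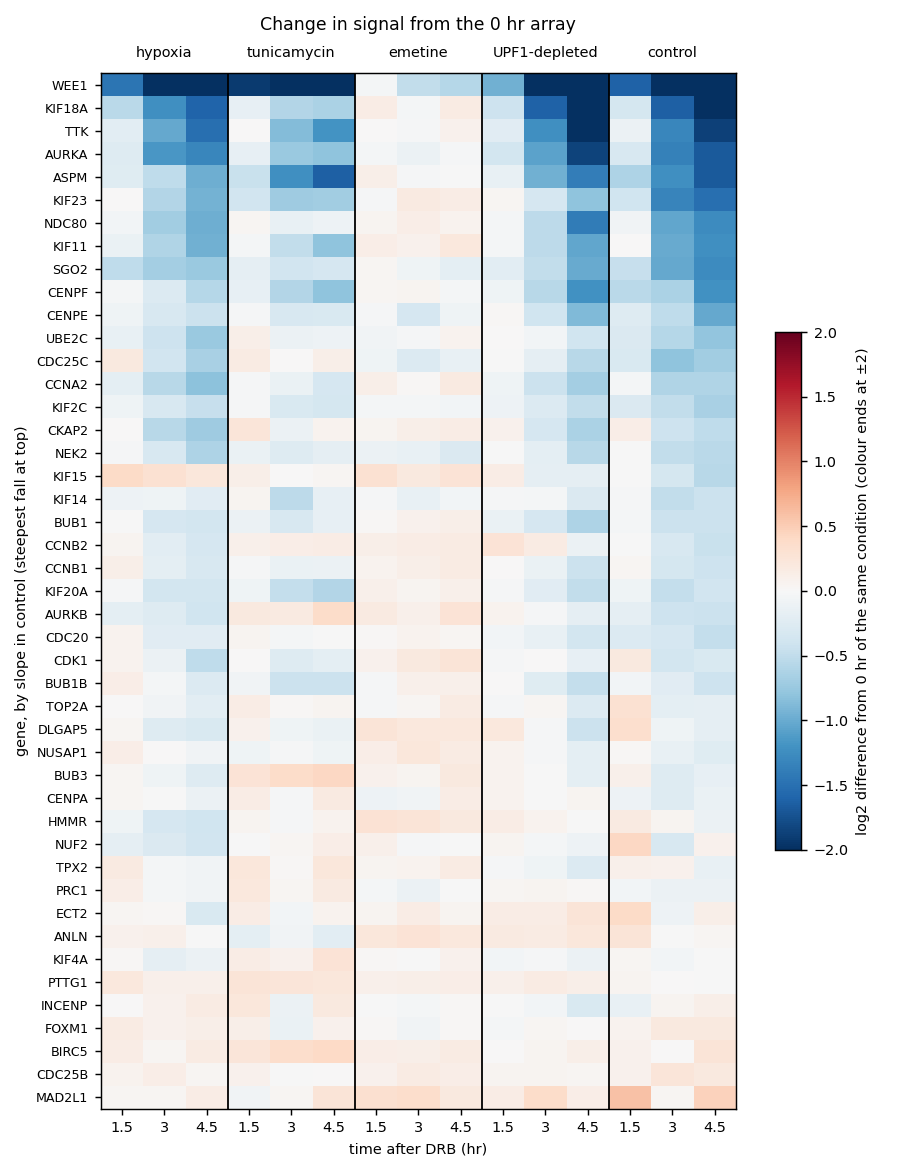
Change of each of the 45 transcripts since its own 0 hr array (log2), by condition and time after DRB (hr), with genes ordered by their slope in control cells and colours ending at 2 in either direction. The median change at 4.5 hr was -0.37 under hypoxia, -0.10 with tunicamycin, 0.11 with emetine, -0.37 in UPF1-depleted cells and -0.42 in control cells.

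Slopes within the other conditions answer which treatments kept these transcripts falling. Under hypoxia 21 fell and 0 rose (14.2% of all genes fell and 15.3% rose), with a median of -0.08 log2 per hr. In UPF1-depleted cells 21 fell and 0 rose (16.5% of all genes fell and 11% rose), also with a median of -0.08. With tunicamycin 11 fell (11.4% of all genes fell) and 1 rose (11% of all genes rose), the survivin gene BIRC5 at 0.09 ± 0.03 log2 per hr (adjusted p = 0.0277), and the median was -0.03. With emetine 0 of 45 passed the limma test in either direction and 0 had an unadjusted p under 0.05, and the median was 0.03. The counts rest in part on the end arrays: 5 fell under hypoxia without its array at 4.5 hr, 6 in UPF1-depleted cells without theirs, and 3 passed with tunicamycin without its array at 0 or at 4.5 hr. Few genes of any kind moved with emetine: 0.394% of all genes had a slope past the test there.

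**Figure D2:**
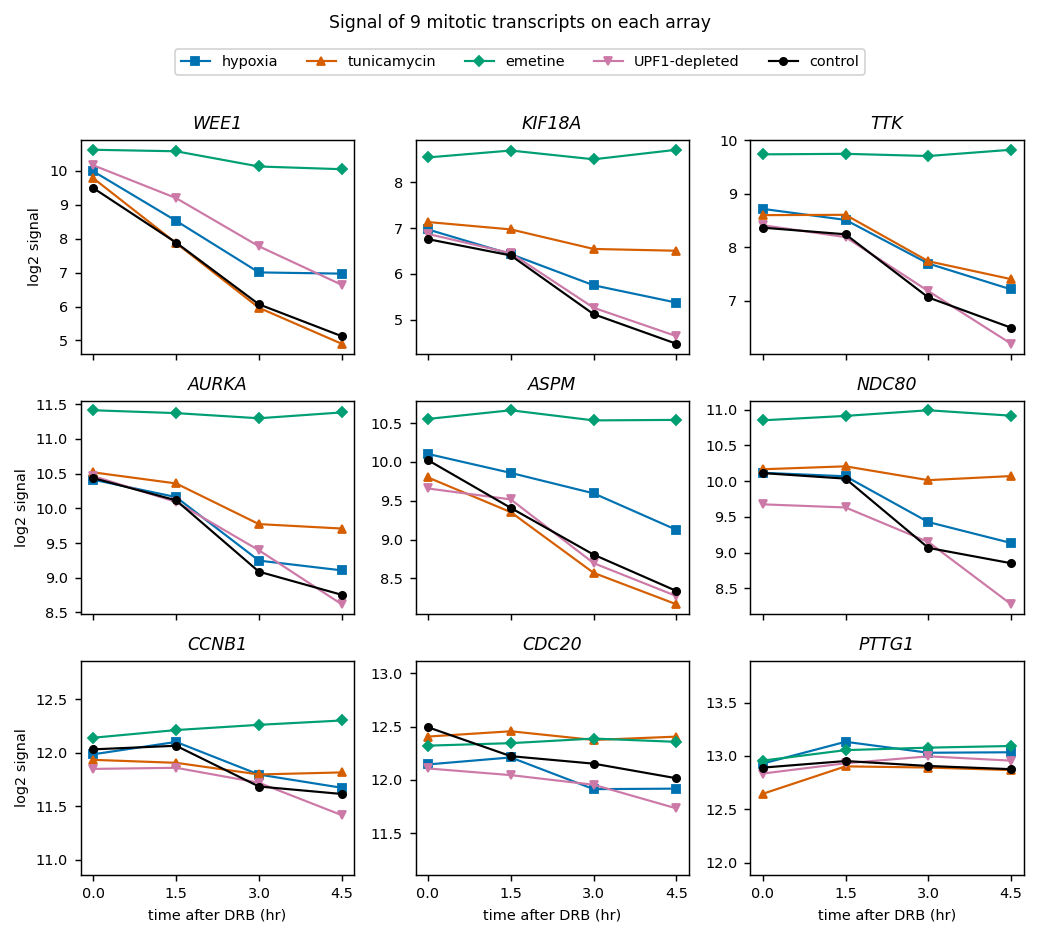
Log2 intensity of single transcripts against time after DRB (hr), 1 line per condition and 1 array per point. The emetine lines of WEE1 and AURKA ended at 10.05 and 11.38, and the control lines at 5.12 and 8.75.

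Among the 4 treatments emetine gave the most differences from control, in slope and in level. The slope was higher with emetine than in control cells for 21 of 45 and lower for 0, against 12.8% of all genes with a higher and 1.58% with a lower slope, and the median difference was 0.12 log2 per hr. By role these were 4 of 8 cyclins and CDK1 regulators, 1 of 3 partners of the anaphase-promoting complex, 6 of 12 checkpoint and kinetochore genes, 2 of 5 Aurora and passenger genes, 6 of 8 kinesins and 2 of 9 spindle and cytokinesis genes. Leaving out 1 array, 8 passed without control at 0 hr, 13 without emetine at 0 hr and 10 without emetine at 4.5 hr.

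WEE1 read 10.62, 10.58, 10.13 and 10.05 with emetine, against 9.49, 7.88, 6.06 and 5.12 in control cells. Its slope was higher by 0.85 ± 0.09 log2 per hr with emetine (adjusted p = 3.59e-05). All 4 emetine arrays lay above all 4 control arrays, and at 4.5 hr the measured ratio was 30.4-fold. The control value at that time was near the filter, so the size of this ratio is uncertain. WEE1, KIF18A, TTK, ASPM and AURKA had the largest statistics on these same arrays, so separation of their ranges adds no support to the test. How often ranges separate among all genes was not counted.
KIF18A read 8.54, 8.70, 8.50 and 8.71 with emetine, against 6.76, 6.40, 5.12 and 4.47 in control cells, a slope difference of 0.56 ± 0.04 (adjusted p = 1.18e-05). The emetine arrays showed no steady course, and the groups did not overlap.
TTK read 9.74, 9.75, 9.71 and 9.82 with emetine, against 8.37, 8.24, 7.06 and 6.50 in control cells, a slope difference of 0.47 ± 0.06 (adjusted p = 0.000107). Here too the emetine values stayed within a narrow band above all control values.

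ASPM, which organizes spindle poles, read 10.55, 10.67, 10.54 and 10.54 with emetine, against 10.02, 9.41, 8.80 and 8.34 in control cells, with a slope difference of 0.37 ± 0.04 (adjusted p = 0.000114). AURKA, the kinase of centrosome maturation, read 11.41, 11.37, 11.30 and 11.38 with emetine, against 10.44, 10.12, 9.09 and 8.75 in control cells, with 0.39 ± 0.05 (adjusted p = 0.00017). In both, the lowest emetine array lay above the highest control array. CCNA2 read 11.07, 11.18, 11.09 and 11.25 with emetine, against 10.72, 10.69, 10.12 and 10.12 in control cells (0.19 ± 0.04, adjusted p = 0.00436). CCNB1 read 12.14, 12.21, 12.26 and 12.30 with emetine, against 12.03, 12.07, 11.68 and 11.61 in control cells (0.14 ± 0.04, adjusted p = 0.0207). For both cyclins every emetine array was above every control array at this probe set, but the ranges overlapped at a second one. There CCNA2 read 1526.8 with emetine and 1795.4 in control cells at 0 hr, as linear intensity. The second CCNB1 probe set read 723.9 with emetine at 0 hr and 752.6 in control cells at 1.5 hr.

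The other slopes past the test were those of KIF23 (0.40 ± 0.06), KIF11 (0.35 ± 0.05), NDC80 (0.33 ± 0.06), CENPF, SGO2, UBE2C, CENPE, KIF15, CKAP2, AURKB, CCNB2, BUB1, KIF2C and KIF20A, the last at 0.12 ± 0.04. CDK1 read 11.81, 11.89, 12.01 and 12.08 with emetine, against 11.69, 11.88, 11.32 and 11.39 in control cells, with 0.16 ± 0.05 (adjusted p = 0.0566). CDC20 read 12.32, 12.34, 12.39 and 12.36 with emetine, against 12.49, 12.22, 12.15 and 12.02 in control cells, with 0.11 ± 0.04 (adjusted p = 0.0637). Neither passed, the emetine and control ranges overlapped in both, and the emetine arrays were the higher at 3 and 4.5 hr. TOP2A read 11.12, 11.10, 11.16 and 11.29 with emetine, against 10.72, 11.02, 10.53 and 10.54 in control cells (0.11 ± 0.05, adjusted p = 0.197). Its emetine values lay above all its control values, but its slope did not pass. FOXM1 read 11.12, 11.14, 11.05 and 11.14 with emetine, against 11.07, 11.14, 11.26 and 11.26 in control cells (-0.05 ± 0.04, adjusted p = 0.465). MAD2L1 read 11.05, 11.38, 11.40 and 11.25 with emetine, against 10.72, 11.30, 10.75 and 11.18 in control cells (-0.01 ± 0.07, adjusted p = 0.926). The FOXM1 and MAD2L1 ranges overlapped between the conditions.

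**Figure D3:**
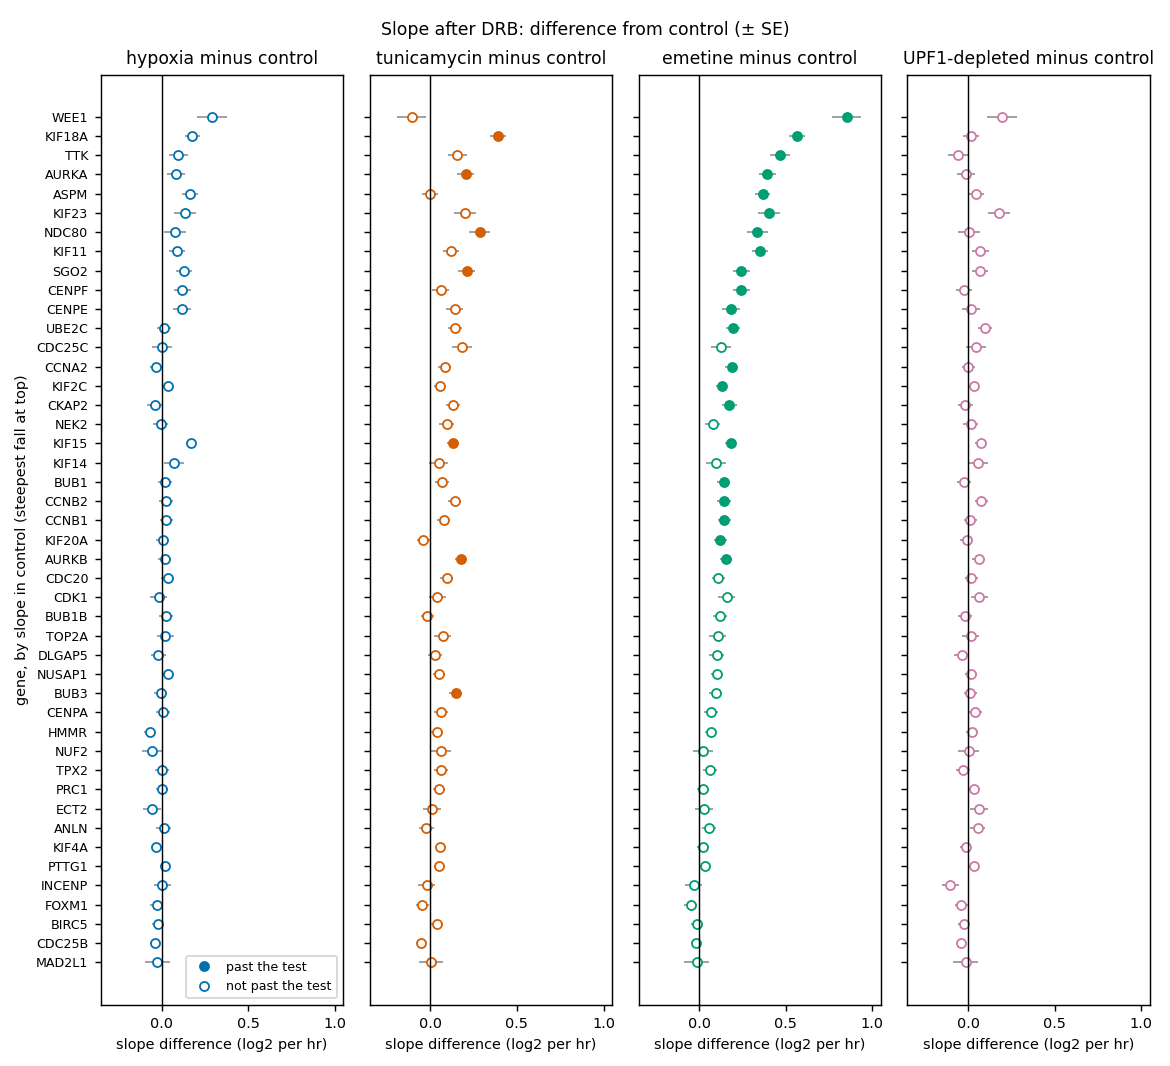
Slope difference from control (log2 per hr) of each transcript in each treatment, with SE, genes ordered by their slope in control cells and points past the adjusted threshold marked. The emetine values run up to 0.85 (WEE1), with 21 past the test, against 7 with tunicamycin and 0 under hypoxia and in UPF1-depleted cells.

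The level at DRB addition was also higher with emetine, for 27 of 45 transcripts, and lower for 1, BUB3. Of all genes 18.9% were higher and 19.8% lower. The median difference was 0.43 log2, against -0.08 for all genes. The higher ones were 9 of 12 checkpoint and kinetochore genes, 7 of 8 kinesins, 7 of 9 spindle and cytokinesis genes, 3 of 8 cyclins and CDK1 regulators, 1 of 5 Aurora and passenger genes and 0 of 3 partners of the anaphase-promoting complex. Without the 0 hr array of either emetine or control cells 16 of 45 passed.

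KIF18A was higher by 1.66 ± 0.13 log2 (adjusted p = 1.33e-06). CDC25C, the phosphatase that activates CDK1, was higher by 1.50 ± 0.16 (adjusted p = 1.63e-05) and read 9.62, 9.53, 9.34 and 9.47 with emetine, against 8.15, 7.85, 7.34 and 7.46 in control cells. KIF2C, a kinesin that depolymerizes microtubules at centromeres, was higher by 0.92 ± 0.09 (adjusted p = 9.69e-06) and read 12.05, 12.01, 12.001 and 11.99 with emetine, against 11.16, 10.86, 10.67 and 10.52 in control cells. For each of the 3 all emetine arrays lay above all control arrays. The genes of this paragraph with values on every array were likewise picked by their statistics, so such separation adds no support. TTK was higher by 1.16 ± 0.16 (adjusted p = 0.000102). NEK2, a centrosomal kinase, was higher by 0.89 ± 0.12 (adjusted p = 0.000123) and read 11.23, 11.12, 11.08 and 10.94 with emetine, against 10.29, 10.28, 9.80 and 9.75 in control cells. The emetine and control values of NEK2 did not overlap either. At 0 hr the measured ratio of emetine to control was 3.45-fold for KIF18A, 2.77-fold for CDC25C, 2.58-fold for TTK, 1.93-fold for NEK2 and 1.85-fold for KIF2C. Further kinesins were higher too, KIF14 by 1.09 ± 0.16, KIF20A by 0.56 ± 0.10, KIF23 by 0.49 ± 0.18, KIF11 by 0.46 ± 0.13 and KIF4A by 0.41 ± 0.09. So were the checkpoint proteins BUB1B (0.78 ± 0.11) and BUB1 (0.64 ± 0.11), the kinetochore motor CENPE (0.87 ± 0.14), and NDC80 (0.65 ± 0.17) with its partner NUF2 (0.64 ± 0.17). Among spindle and cytokinesis genes ECT2 (0.87 ± 0.15), DLGAP5 (0.79 ± 0.12), CKAP2 (0.71 ± 0.12), ASPM (0.61 ± 0.12), PRC1, the bundler of midzone microtubules (0.53 ± 0.10), ANLN (0.40 ± 0.12) and NUSAP1 (0.25 ± 0.09) were higher. By contrast the level differences of CDK1 (0.02 ± 0.14), CCNB1 (0.06 ± 0.11), PTTG1 (0.06 ± 0.09), FOXM1 (0.04 ± 0.11) and CDC20 (-0.12 ± 0.10) did not pass.

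**Figure D4:**
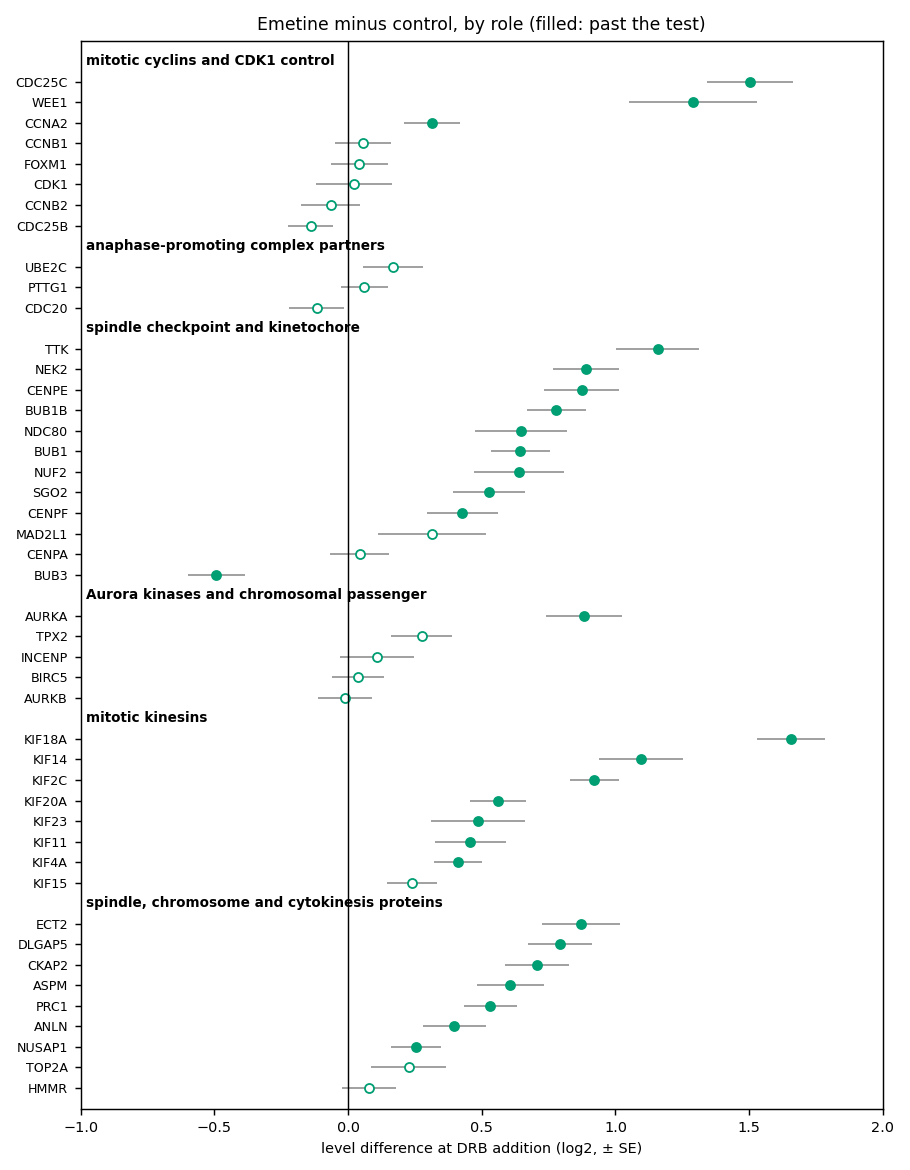
Fitted log2 level difference of emetine from control at DRB addition for the 45 transcripts, ordered by role, with SE. Values run from -0.49 (BUB3) to 1.66 (KIF18A), with 27 higher and 1 lower past the test.

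Other probe sets of the same genes did not always give the same sign. The 28 genes that passed hold 22 other probe sets above the filter, in 16 genes. Of these probe sets 14 had the same sign and 8 the opposite. Among the opposite ones only a dim CDC25C probe set passed, at -0.67 ± 0.20 log2. BUB3 had -0.49 ± 0.11 at its brightest probe set and differences of 0.15, 0.27 and 0.11 at its other bright probe sets, so its direction depends on the probe set. A second bright CCNA2 probe set had -0.26 ± 0.12, a dimmer NEK2 probe set -0.47 ± 0.21, a dim BUB1 probe set -0.44 ± 0.23 and a dim AURKA probe set -0.26 ± 0.22. MAD2L1 had 0.31 ± 0.20 at its brightest and -0.60 ± 0.15 at its second probe set, and a dimmer BIRC5 probe set had -0.82 ± 0.14. For the slope with emetine against control, the 21 genes that passed hold 15 other probe sets above the filter, in 12 genes. Of these probe sets 11 had the same sign and 4 the opposite, in BUB1, CCNB2 and KIF23. Among the opposite ones only a dim KIF23 probe set passed, at -0.54 ± 0.14 log2 per hr, where the brightest had 0.40 ± 0.06.

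Coverage of the 2 RNA ends differed between conditions for ACTB. The log2 ratio of the 3' to the 5' control probe sets of ACTB was 2.04 ± 0.13 under hypoxia, 0.54 ± 0.11 with tunicamycin, 2.04 ± 0.19 with emetine, 1.24 ± 0.06 in UPF1-depleted cells and 0.55 ± 0.10 in control cells (mean and SD over 4 times). The same ratio of GAPDH was 0.15 ± 0.04 under hypoxia, 0.003 ± 0.037 with tunicamycin, 0.11 ± 0.03 with emetine, 0.07 ± 0.02 in UPF1-depleted cells and 0.04 ± 0.04 in control cells. The part of end coverage in the level and slope differences was not tested.

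Among 37 genes of DNA replication and the G1/S transition, 4 were higher and 10 lower in level with emetine (median -0.08 log2), against 18.9% and 19.8% of all genes. Their slopes were higher for 16 and lower for 1 (median 0.12 log2 per hr), against 12.8% and 1.58% of all genes. The mitotic genes had 21 of 45 higher, and the difference between these groups was not tested.

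With tunicamycin fewer slopes passed than with emetine. The slope was higher than in control for 7 of 45 and lower for 0, against 4.66% of all genes with a higher and 0.58% with a lower slope, and 17 had an unadjusted p under 0.05. The median difference was 0.06 log2 per hr. The 7 were KIF18A, AURKB, NDC80, SGO2, AURKA, KIF15 and BUB3. BUB3 had 0.15 log2 per hr at its brightest probe set and -0.05, -0.01, 0.02 and 0.12 at its other 4 above the filter, so its direction depends on the probe set. Leaving out 1 array, 1 passed without tunicamycin at 0 or 4.5 hr or control at 0 hr. In the same way 4 passed without tunicamycin at 1.5 hr, any later control, emetine at 4.5 hr or UPF1 depletion at 1.5 hr.

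KIF18A read 7.13, 6.97, 6.55 and 6.51 with tunicamycin, against 6.76, 6.40, 5.12 and 4.47 in control cells, a slope difference of 0.39 ± 0.04 (adjusted p = 0.000558). AURKB, the kinase that corrects wrong attachments, read 8.60, 8.79, 8.77 and 8.96 with tunicamycin, against 8.89, 8.71, 8.47 and 8.46 in control cells, with 0.18 ± 0.04 (adjusted p = 0.0136). KIF18A fell less steeply with tunicamycin, with all 4 of its values higher than the control value of the same time. AURKB was lower than control at 0 hr and higher from 1.5 hr on. NDC80 read 10.16, 10.21, 10.01 and 10.07 with tunicamycin, against 10.11, 10.03, 9.07 and 8.85 in control cells, with 0.28 ± 0.06 (adjusted p = 0.0183). SGO2 read 10.07, 9.89, 9.69 and 9.73 with tunicamycin, against 10.19, 9.73, 9.17 and 8.92 in control cells, with 0.21 ± 0.05 (adjusted p = 0.025). AURKA read 10.52, 10.36, 9.77 and 9.71 with tunicamycin, against 10.44, 10.12, 9.09 and 8.75 in control cells, with 0.20 ± 0.05 (adjusted p = 0.0351). The tunicamycin and control values of these 3 were close at 0 hr and apart at 4.5 hr. WEE1 went on falling, with 9.78, 7.87, 5.96 and 4.90 with tunicamycin, against 9.49, 7.88, 6.06 and 5.12 in control cells and a slope difference of -0.11 ± 0.09 (adjusted p = 0.597). Nor did ASPM differ past the threshold, at -0.00 ± 0.04 (adjusted p = 0.992). The last WEE1 values, with tunicamycin and in control cells, lay near the filter, which leaves their comparison uncertain.

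CCNA2 read 10.65, 10.63, 10.52 and 10.31 with tunicamycin. CCNB1 read 11.93, 11.91, 11.80 and 11.82 with tunicamycin. CDK1 read 11.70, 11.71, 11.45 and 11.50 with tunicamycin. The slope differences of these 3 did not pass. CDC20 read 12.41, 12.46, 12.37 and 12.41 with tunicamycin, and its slope difference was 0.09 ± 0.04 (adjusted p = 0.19). FOXM1 read 11.03, 11.15, 10.90 and 11.12 with tunicamycin. TOP2A read 10.66, 10.81, 10.68 and 10.71 with tunicamycin. Neither CDC20, FOXM1 nor TOP2A passed, and all 3 had a nearly flat course. MAD2L1 read 11.03, 10.96, 11.07 and 11.29 with tunicamycin, and did not pass. In level at DRB addition 0 of 45 passed limma's test with tunicamycin, against 2.89% of all genes in either direction, and 6 had an unadjusted p under 0.05.

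Hypoxia did not change a slope past the test. Of 45 transcripts 0 passed limma's test against control and 7 had an unadjusted p under 0.05, and 0.0345% of all genes passed. The nearest was KIF15, a kinesin that backs up KIF11, with 0.17 ± 0.03 log2 per hr (adjusted p = 0.0988). WEE1 read 9.99, 8.53, 7.01 and 6.97 under hypoxia, against 9.49, 7.88, 6.06 and 5.12 in control cells, with 0.29 ± 0.09 (adjusted p = 0.262). WEE1 was higher under hypoxia than in control cells at each time, and it went down in both.

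In level, 3 of 45 were higher under hypoxia and 0 lower, against 3.21% of all genes higher and 4.44% lower. ECT2, the exchange factor that activates RhoA for cytokinesis, was higher by 0.71 ± 0.15 log2 (adjusted p = 0.0131) and read 10.69, 10.74, 10.71 and 10.38 under hypoxia, against 9.94, 10.33, 9.83 and 10.05 in control cells. ANLN, anillin of the cleavage furrow, was higher by 0.45 ± 0.12 (adjusted p = 0.036) and read 11.95, 12.03, 12.05 and 11.94 under hypoxia, against 11.44, 11.70, 11.44 and 11.47 in control cells. Both had all hypoxia arrays above all control arrays, which adds no support, since they were picked by their statistics on these arrays. CCNA2 was higher by 0.43 ± 0.11 (adjusted p = 0.0303) and read 11.16, 10.97, 10.61 and 10.33 under hypoxia, against 10.72, 10.69, 10.12 and 10.12 in control cells, with overlapping ranges, as it was lower at the later times in both. A second probe set gave -0.07 ± 0.12 for ANLN and -0.16 ± 0.12 for CCNA2, so these 2 directions depend on the probe set, and a dimmer ECT2 probe set gave 0.14 ± 0.19. Leaving out 1 array, 0 passed without hypoxia or control at 0 hr, 1 without hypoxia at 1.5 or 4.5 hr or without control at 4.5 hr, and 7 without control at 1.5 hr.

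For the remaining key transcripts hypoxia gave no difference past the test. CCNB1 read 11.99, 12.10, 11.80 and 11.67 under hypoxia. CDK1 read 11.85, 11.92, 11.73 and 11.34 under hypoxia. CDC20 read 12.14, 12.21, 11.91 and 11.92 under hypoxia. These 3 were lowest or near their lowest at 4.5 hr. AURKA read 10.41, 10.16, 9.25 and 9.11 under hypoxia, lower at each later time. FOXM1 read 11.13, 11.29, 11.21 and 11.24 under hypoxia. TOP2A read 11.12, 11.14, 11.05 and 10.91 under hypoxia. FOXM1 and TOP2A stayed within a narrow range. MAD2L1 read 11.52, 11.56, 11.55 and 11.67 under hypoxia, with the lowest value at 0 hr. None of these 7 passed for level or slope against control.

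Depletion of UPF1 changed no slope past the test. Against control 0 of 45 passed limma's test, 4 had an unadjusted p under 0.05 and 0.0414% of all genes passed. In level, 2 of 45 were higher (9.68% of all genes) and 1 lower (3.99% of all genes). WEE1 was higher by 0.86 ± 0.24 log2 (adjusted p = 0.0322) and read 10.17, 9.20, 7.78 and 6.64 in UPF1-depleted cells, against 9.49, 7.88, 6.06 and 5.12 in control cells. KIF2C was higher by 0.30 ± 0.09 (adjusted p = 0.0485) and read 11.39, 11.29, 11.12 and 10.90 in UPF1-depleted cells, against 11.16, 10.86, 10.67 and 10.52 in control cells. Both were higher than control at every time, with overlapping ranges, as both were lower at each later time in the 2 conditions. With quantile normalization neither passed, with WEE1 at 0.75 (adjusted p = 0.0559) and KIF2C at 0.26 (adjusted p = 0.0663), and 0 of 45 were higher and 2 lower.

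CCNB2 was lower by 0.47 log2 (SE 0.11, adjusted p = 0.0146) and read 10.68, 10.96, 10.85 and 10.56 in UPF1-depleted cells, against 11.25, 11.25, 10.93 and 10.81 in control cells. The depleted cells had the lower value at each time. CCNA2 read 10.61, 10.52, 10.18 and 9.93 in UPF1-depleted cells. CCNB1 read 11.85, 11.86, 11.72 and 11.42 in UPF1-depleted cells. CDK1 read 11.68, 11.66, 11.69 and 11.51 in UPF1-depleted cells. All 3 were lowest at 4.5 hr. CDC20 read 12.11, 12.04, 11.95 and 11.73 in UPF1-depleted cells, with a level difference of -0.30 ± 0.10 (adjusted p = 0.0673). AURKA read 10.47, 10.09, 9.40 and 8.62 in UPF1-depleted cells. CDC20 and AURKA both went down at each step. FOXM1 read 10.99, 10.95, 11.02 and 10.998 in UPF1-depleted cells. TOP2A read 10.70, 10.68, 10.73 and 10.42 in UPF1-depleted cells. MAD2L1 read 11.28, 11.43, 11.64 and 11.42 in UPF1-depleted cells. FOXM1 and MAD2L1 showed no steady course, and none of these 8 passed for level or slope. Leaving out 1 array, 0 levels passed without UPF1 depletion or control at 0 hr, and 1 without UPF1 depletion at 1.5 or 4.5 hr or without control at 4.5 hr.

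Slopes were also compared directly between treatments, in the same fit. Emetine had a higher slope than hypoxia for 14 transcripts and a lower one for 0 (10.1% and 3.07% of all genes). Against tunicamycin it had a higher slope for 8 and a lower one for 0 (5.94% and 0.463% of all genes), and against UPF1 depletion for 18 and 0 (12.5% and 1.24%). The 8 against tunicamycin were WEE1 (0.96 ± 0.09), ASPM (0.37 ± 0.04), TTK, KIF11, KIF20A, AURKA, KIF18A and CENPF. Hypoxia against tunicamycin gave a higher slope for WEE1 (0.40 ± 0.09) and ASPM (0.17 ± 0.04), with 2.53% of all genes higher. It gave a lower slope for KIF18A (-0.21 ± 0.04), CKAP2, AURKB and BUB3, with 3.37% of all genes lower. Of the other BUB3 probe sets above the filter 2 had the opposite sign, at 0.009 and 0.06, so this direction depends on the probe set too. Tunicamycin against UPF1 depletion gave a higher slope for KIF18A (0.37 ± 0.04), NDC80 (0.28 ± 0.06) and AURKA (0.22 ± 0.05), and a lower one for 0, with 2.95% of all genes higher and 0.442% lower. Hypoxia against UPF1 depletion gave 0 in limma's test, 7 at an unadjusted p under 0.05, and 0.104% of all genes passed. Leaving out 1 array, emetine against hypoxia gave as few as 4 (without hypoxia at 0 or 4.5 hr, or emetine at 4.5 hr). Emetine gave 2 against tunicamycin (without tunicamycin at 0 hr or emetine at 4.5 hr) and 5 against UPF1 depletion (without UPF1 depletion at 4.5 hr). Hypoxia against tunicamycin gave 0 without hypoxia at 4.5 hr or tunicamycin at 0 or 4.5 hr, and tunicamycin against UPF1 depletion 0 without UPF1 depletion at 4.5 hr.

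Other genes of mitosis were taken from 5 lists. They were the anaphase-promoting complex with its partners, further kinetochore and passenger genes, and condensin and cohesin with related genes. The others held further spindle and cytokinesis genes, and further regulators of mitotic entry. FBXO5 and UBE2S, which are not subunits of the complex, stand in its list, and MKI67 in that of condensin and cohesin. Of 129 measured, 44 fell and 13 rose in control cells, against 17.5% and 14.2% of all genes. With emetine 44 were higher and 19 lower in level (18.9% and 19.8% of all genes), and 39 had a higher and 0 a lower slope (12.8% and 1.58%). The level counts with emetine differed between lists. In the condensin and cohesin list 10 of 21 genes were higher and 0 lower. In the anaphase-promoting complex list 4 of 16, FBXO5 among them, were higher and 3 lower. With tunicamycin 11 had a higher slope and 0 a lower one (4.66% and 0.58% of all genes), while 2 were higher and 2 lower in level (2.89% of all genes in either direction). Under hypoxia 7 were higher and 1 lower in level (3.21% and 4.44% of all genes), and in UPF1-depleted cells 15 were higher and 2 lower (9.68% and 3.99%). For slopes against control 0 passed limma's test under hypoxia and in UPF1-depleted cells, where 6 and 11 had an unadjusted p under 0.05.

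The largest statistics in the emetine slopes were those of HJURP, the chaperone that loads CENPA (0.81 ± 0.07), FAM83D of the spindle (0.75 ± 0.06) and MIS12 of the kinetochore (0.69 ± 0.07). In the emetine levels they were those of CENPC, which binds centromeric chromatin (2.18 ± 0.17), STIL, a centriole assembly factor (1.52 ± 0.12), and LIN52 of the MuvB core (1.28 ± 0.10). In the tunicamycin slopes they were those of HJURP (0.50 ± 0.07), STIL (0.28 ± 0.04) and KNSTRN (0.23 ± 0.04). In level, tunicamycin gave MIS12 (1.46 ± 0.19), CDC26 of the anaphase-promoting complex (-0.53 ± 0.10) and STIL (0.59 ± 0.12). Hypoxia gave STIL (0.55 ± 0.12), the cohesin subunit RAD21 (0.53 ± 0.12) and MASTL, the Greatwall kinase (0.55 ± 0.13). UPF1 depletion gave BOD1 (0.80 ± 0.11), LIN52 (0.66 ± 0.10) and CENPO (0.58 ± 0.09). STIL was thus among the 3 for the levels of hypoxia, tunicamycin and emetine, which were all set against the same control arrays. It also passed for the level in UPF1-depleted cells (0.47 ± 0.12), set against those arrays too.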

How the data were processed

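Total RNA from U2OS cells was labelled for Affymetrix 3' arrays, per the labels' protocols. The deposited intensity values, linear and 1 per probe set and array, were made by the authors with RMA (version not given), per the submitters' processing notes. RMA normalizes between arrays, so slopes and levels are relative to each array's typical transcript. Here the values of 54675 probe sets on 20 arrays were log2 transformed. Probe sets with 1 symbol were named from the platform annotation, and the brightest one stood for each gene. The 14478 genes whose mean exceeded the 40th percentile over probe sets were tested.

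Level and slope differences came from a limma fit (version 3.58.1, R 4.3.3) on the whole table. It had a term for each time and, for each treatment, a level difference and a straight-line difference from control. Control cells had no line of their own in this fit, as the time terms carry their course. It used 12 coefficients and left 8 residual degrees of freedom. Slopes within conditions came from straight lines alone (10 coefficients, 10 residual degrees of freedom). Benjamini-Hochberg adjustment ran over all genes tested, at 0.05. The p-values reflect how single arrays scatter around fitted lines, which may be technical, and culture or array effects cannot be told apart from condition. Precision is limited by the number of arrays. The fits were also run on simulated data with independent noise, the same time course in all conditions, and constant or straight-line added changes. Such data hold no array or culture effects, so they cannot show how the fits behave with them.

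Members, lists and tests were chosen with earlier results of these data known. Values on every array are given for 8 key transcripts, for the extremes of the control slopes, and for up to 5 members with the largest statistics per difference from control, and NUF2, chosen after its values were seen. Of the other mitosis genes, the 3 with the largest statistics per difference are named. Alternatives changed the filter, probe set choice, normalization, centring, variance model, time term and arrays left out. Promoters are from the RefSeq table, and the 4 printed were chosen with results known.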

Additional observations from a re-analysis of the deposited data

Results flagged for a closer look

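Treatments differed from each other in the slopes of mitotic transcripts by a direct test of the difference. The number of the 45 past limma's adjusted threshold was 14 for emetine against hypoxia, 8 for emetine against tunicamycin, 18 for emetine against UPF1 depletion, 6 for hypoxia against tunicamycin and 3 for tunicamycin against UPF1 depletion. In the emetine comparisons all of them had the higher slope with emetine. Of all genes 10.1% had a higher and 3.07% a lower slope with emetine than under hypoxia, 5.94% and 0.463% than with tunicamycin, and 12.5% and 1.24% than in UPF1-depleted cells. For hypoxia against tunicamycin the shares of all genes were 2.53% higher and 3.37% lower, and for tunicamycin against UPF1 depletion 2.95% and 0.442%. The counts of the 45 were as low as 4, 2, 5, 0 and 0, in the order above, with 1 array left out. The 3' to 5' log2 ratio of ACTB averaged 2.04 under hypoxia, 0.54 with tunicamycin, 2.04 with emetine, 1.24 in UPF1-depleted cells and 0.55 in control cells, and its part in these differences was not tested.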

How the results depend on the processing

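Counts of the 45 transcripts past the test were recomputed under 8 alternatives and without each of the 20 arrays, and 1 alternative (all probe sets tested) was chosen after seeing the data. In the 8 alternatives the emetine level and slope counts and the count of emetine against UPF1 depletion stayed within 1.5 times. So did the slope counts within each condition, except that their fit has no time factor, so the setting without it does not apply. The cause of the changes below was not tested.

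With no replicate block (no time factor), 1 passed for the levels of hypoxia and of UPF1 depletion, 3 for the tunicamycin slope, 2 for emetine against tunicamycin, 1 for hypoxia against tunicamycin and 1 for tunicamycin against UPF1 depletion. The fit reported matches the conditions by DRB time, and the labels give no other pairing. With a trend and robust variance, 8 passed for the hypoxia level, 11 for the tunicamycin slope, 22 for emetine against hypoxia, 12 for hypoxia against tunicamycin and 6 for tunicamycin against UPF1 depletion. Quantile normalization gave 11 for the hypoxia level, and for the UPF1 depletion level 0 higher and 2 lower (WEE1 0.75 and KIF2C 0.26, neither past the test). Centring on ribosomal protein genes gave 1 higher and 1 lower there. Without a filter on dim genes, 1 passed for the hypoxia level, 5 for emetine against tunicamycin and 3 for hypoxia against tunicamycin. With all probe sets tested, 4 passed for the tunicamycin slope, 5 for emetine against tunicamycin and 3 for hypoxia against tunicamycin. Without probe sets ending in _s_at or _x_at, which left 34 members, 1 passed for the hypoxia level, 1 for the tunicamycin level, 3 for the tunicamycin slope, 5 for emetine against tunicamycin and 1 for tunicamycin against UPF1 depletion. There 7 single values changed sign: the hypoxia level of ANLN (-0.074), the emetine levels of MAD2L1 (-0.60) and AURKA (-0.26), the slope of KIF23 with emetine against control (-0.54), hypoxia (-0.76) and UPF1 depletion (-0.53), and the slope of AURKA with tunicamycin against UPF1 depletion (-0.021).

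Leaving out 1 array at a time gave 14 to 26 for the slope within control, 5 to 23 within hypoxia, 3 to 13 within tunicamycin, 0 within emetine and 6 to 22 within UPF1 depletion. For levels it gave 0 to 7 under hypoxia, 0 with tunicamycin, 16 to 28 with emetine and 0 to 3 with UPF1 depletion. For slopes against control it gave 0 under hypoxia and UPF1 depletion, 1 to 9 with tunicamycin and 8 to 21 with emetine. Between treatments it gave 4 to 17 for emetine against hypoxia, 2 to 8 against tunicamycin and 5 to 18 against UPF1 depletion. It gave 0 to 7 for hypoxia against tunicamycin, 0 to 4 for tunicamycin against UPF1 depletion and 0 for hypoxia against UPF1 depletion.

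The transcripts past the test in every one of these settings that measured them were 11 within control (CCNA2, TTK, CENPF, KIF11, KIF18A, ASPM, NEK2, NDC80, SGO2, UBE2C and WEE1), 3 within hypoxia (CCNA2, KIF18A and WEE1), 2 within tunicamycin (ASPM and WEE1) and 5 within UPF1 depletion (TTK, CENPF, KIF18A, ASPM and WEE1). Against control they were 12 for the emetine level (CDC25C, BUB1, BUB1B, TTK, CENPE, KIF2C, KIF14, KIF18A, KIF20A, DLGAP5, NEK2 and WEE1), 6 for the emetine slope (TTK, KIF11, KIF18A, ASPM, NDC80 and WEE1), 1 for the tunicamycin slope (KIF18A), and 0 for the levels of hypoxia and UPF1 depletion. Between treatments they were 2 for emetine against hypoxia (TTK and KIF18A), 2 against tunicamycin (ASPM and WEE1) and 4 against UPF1 depletion (TTK, KIF18A, ASPM and WEE1), and 0 for hypoxia against tunicamycin and tunicamycin against UPF1 depletion.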
